A study of Mus musculus with 19 samples.

Results

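Genes of the neutrophil granules and their Cebp regulators were followed library by library through early innate lymphoid development. They were chosen by name, 10 of 18607 genes in the table: the azurophil granule genes Mpo, Prtn3, Elane and Ctsg, the calcium-binding genes S100a8 and S100a9, and the transcription factor genes Cebpa, Cebpb, Cebpd and Cebpe. The choice was made with levels of these genes in these libraries already in view, so their levels and differences are given below as descriptions. Their calls in the fit across all genes are counted once, beside the share of all genes called, and support nothing. All 10 were in the table. RNA-seq had been run on 19 libraries from progenitors sorted from bone marrow of C57BL/6 mice. ALP (7 libraries) were sorted as lineage-low, Ly-6D-low cells positive for Kit and IL-7Ra and high for Flt3. EILP (7 libraries), early innate lymphoid progenitors, were lineage-low, Ly-6D-low and CD122-low, Kit-positive, GFP-high and Thy-1.2-low, with intermediate or low IL-7Ra. ILCp (5 libraries), later progenitors of innate lymphoid cells, shared the lineage, Ly-6D, CD122, Kit and GFP gates of EILP and were Thy-1.2-positive, IL-7Ra-high and a4b7-positive. Mice carried Tcf7EGFP/+ in all 3 groups, ALP included, except that ILCp 4 and ILCp 5 came from Plzf-cre-GFP/+ mice. A GFP reporter marks every cell that transcribes its gene, whatever the lineage of that cell. The labels do not give the animals' ages, nor whether different libraries came from different animals, so the spread between libraries may be technical.

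Neutrophils store their antimicrobial proteins in granules that are filled in order. Azurophil (primary) granules form first, in promyelocytes, and hold myeloperoxidase (Mpo) and the serine proteases proteinase 3 (Prtn3), neutrophil elastase (Elane) and cathepsin G (Ctsg). Specific and gelatinase granules form later and hold lactoferrin (Ltf), cathelicidin (Camp) and related proteins, and S100A8 and S100A9, which pair as calprotectin, fill the cytosol of maturing neutrophils. C/EBPα starts the granulocyte programme and acts with PU.1 (Spi1) on azurophil genes, C/EBPε is needed for the later granules, and C/EBPβ and C/EBPδ act in later and in stimulated myeloid cells.

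Several of these genes lie side by side. Prtn3 (chromosome 10, 79874476 to 79883174, plus strand, GRCm38) ended 3072 bases before Elane (79886247 to 79888215, plus strand). S100a8 (chromosome 3, 90668978 to 90670035, plus strand) and S100a9 (90692632 to 90695721, minus strand) were 22596 bases apart. Mpo lay on chromosome 11 (87793581 to 87804413, plus strand), Ctsg on chromosome 14 (56099881 to 56102574, minus strand) and Cebpe also on chromosome 14 (54710360 to 54712174, minus strand). Cebpa was on chromosome 7 (35119293 to 35121928), Cebpb on chromosome 2 (167688915 to 167690418) and Cebpd on chromosome 16 (15887286 to 15891031), all on the plus strand. Each span is the whole gene in GENCODE M21, exons and introns together. The library kit does not mark strand, and Mpo, Prtn3, Cebpa, Cebpb and Cebpd each overlap a gene on the opposite strand (Gm11505, Plppr3, Gm45091, Tmem189 and Spidr), so reads from such partners cannot be told apart.

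The promoters of the azurophil genes are shown because these genes moved together between libraries. RefSeq (GRCm38.p6) gave a start for 8 of the 10 members. The 250 bases before each start were searched on both strands for AGGAAGT, a core bound by PU.1 and other ETS factors. That motif was chosen after these promoters had been read, so its count is only a description. It was in 5 of the 8 windows, those of Mpo, Prtn3, Elane, Ctsg and S100a8, and in 7.69% of 32851 mouse promoters of the same length. Each stretch below is written 5′ to 3′ along the gene and stops before any GENCODE exon that reaches into the window, and capitals mark the motif or its reverse complement.
Mpo, chr11:87793534-87793580, plus strand: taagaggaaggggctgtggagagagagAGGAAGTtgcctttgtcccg
Prtn3, chr10:79879417-79879613, plus strand: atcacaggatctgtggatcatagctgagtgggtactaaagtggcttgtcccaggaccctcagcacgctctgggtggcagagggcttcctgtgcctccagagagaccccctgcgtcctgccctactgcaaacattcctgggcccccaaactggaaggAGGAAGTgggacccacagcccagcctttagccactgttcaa
Elane, chr10:79886062-79886246, plus strand: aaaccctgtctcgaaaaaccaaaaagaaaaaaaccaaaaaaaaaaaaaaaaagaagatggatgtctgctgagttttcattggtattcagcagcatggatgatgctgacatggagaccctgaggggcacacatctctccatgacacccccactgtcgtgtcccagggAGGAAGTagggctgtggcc
Ctsg, chr14:56102575-56102824, minus strand: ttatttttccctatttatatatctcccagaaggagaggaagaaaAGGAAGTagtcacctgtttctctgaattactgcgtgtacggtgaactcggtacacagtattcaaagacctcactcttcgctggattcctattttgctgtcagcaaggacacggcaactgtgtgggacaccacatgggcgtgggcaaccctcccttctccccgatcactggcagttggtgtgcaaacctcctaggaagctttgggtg
The motif began 94 bases before the RefSeq start of Prtn3, 84 before that of Elane, 223 before that of Mpo and 206 before that of Ctsg. These distances depend on the start taken. GENCODE exons began 203 bases before the RefSeq start of Mpo and 65 before that of Elane, and in both printed stretches the motif lies near the end. The stretch of Prtn3 lies within its GENCODE gene, downstream of the first exon. A Myb core, CAACGG, followed the ETS core in the neighbouring genes, beginning 56 bases before the start of Prtn3 and 51 before that of Elane. It is not shown whole in the stretches printed, which end before it is complete, and was in 4.05% of all promoters. The stretch before S100a8 carried the ETS core on the opposite strand and, in capitals further on, TTNNGNAA, a pattern read by C/EBP factors.
S100a8, chr3:90668821-90668977, plus strand: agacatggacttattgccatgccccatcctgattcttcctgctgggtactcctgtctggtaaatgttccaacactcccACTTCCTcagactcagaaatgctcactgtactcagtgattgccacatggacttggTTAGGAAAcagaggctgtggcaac
TTNNGNAA was in the windows of S100a8 and S100a9 and in none of the other 6 member windows, against 36.8% of all promoters. A match in these letters is not a measured binding site.

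All levels below are the authors' log2 CPM (reads scaled to library size, on a log2 scale) as deposited, and the table gives no read totals, so the depth of each library is unknown. From the values, the libraries had been given a common distribution of values and the batches levelled, so that the departures of the libraries in a batch from their group means sum to 0 for every member (largest sum 6.29e-05). A difference between libraries of the same batch is untouched by this step, while a level set beside one from another batch depends on the other libraries of both batches. Batch 1 held ALP 1, EILP 1 and ILCp 1, batch 2 ALP 2, ALP 3, EILP 2 and ILCp 2, batch 3 EILP 3 and EILP 4 alone, batch 4 ALP 4, EILP 5 and ILCp 3 to 5, and batch 5 ALP 5 to 7, EILP 6 and EILP 7. As a check of the labels, markers of ALP (Flt3, Il7r, Dntt, Rag1 and Ly6d) summed to 4475 to 11296 CPM in ALP, 314 to 772 in EILP and 1021 to 1433 in ILCp. Markers of EILP (Tcf7, Zbtb16, Id2, Nfil3 and Tox) summed to 61.0 to 157 CPM, 1498 to 10417 and 2406 to 3922. Markers of ILCp (Tcf7, Zbtb16, Il7r, Thy1, Itga4, Itgb7, Gata3 and Id2) summed to 353 to 761, 2161 to 11444 and 4672 to 8081. That sum did not set ILCp apart from EILP, as EILP 6 (9890) and EILP 7 (11444) exceeded every ILCp library. Its list shares Tcf7, Zbtb16 and Id2 with that of EILP. EILP 1 to 5 summed to 2161 to 3719 CPM on it, below every ILCp library. EILP 6 and EILP 7 belong to batch 5, where ALP 5 and ALP 7 shared the lowest value in Tcf7 and in Zbtb16. That value lay 2.30 and 1.76 above −4.96, the common lowest level of the table. Levels of both genes in EILP 6 and EILP 7, and so their sums, depend on where it was set.

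The azurophil granule genes were highest in EILP and lowest in ILCp by group mean, although in Mpo and Elane the place of ILCp below ALP rests on ILCp 2. Mpo ranked 1 to 45 among all 18607 genes in the EILP libraries, 19 to 372 in ALP and 39 to 3745 in ILCp. Its level in EILP 1 to 7 was 11.08, 13.14, 11.42, 12.20, 10.30, 12.27 and 12.27 log2 CPM, against 8.57 to 10.70 in ALP (median 9.78) and 8.19, 6.16, 10.30, 10.30 and 7.47 in ILCp 1 to 5. Every EILP library except EILP 5 stood above every ALP library. ILCp 3 and ILCp 4 equalled EILP 5, the lowest EILP library, so EILP and ILCp touched at that level. Libraries given a common distribution can take the same value wherever a gene has the same rank. These exact ties, and that of EILP 6 with EILP 7, therefore need not be equal measured levels. The mean was 9.68 ± 0.75 over the 7 ALP libraries (± is the SD for levels), 11.81 ± 0.94 over the 7 of EILP and 8.48 ± 1.81 over the 5 of ILCp. EILP exceeded ALP by 2.13 ± 0.70 (SE of the limma model with group and batch, as for all differences between groups below) and ILCp differed from EILP by −3.33 ± 0.83 (−2.15 without ILCp 2).

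Prtn3, the protease gene next to Elane, followed the same order. Its levels in EILP 1 to 7 were 7.995, 10.28, 8.35, 8.84, 7.52, 8.56 and 8.62 log2 CPM, and in ILCp 1 to 5 they were 5.01, 3.90, 6.90, 6.53 and 4.64. Every ILCp library was below every EILP library. ALP ran from 5.64 to 7.86 (median 7.20), and EILP 5 alone among EILP fell inside that range. Prtn3 was 1.72 ± 0.60 higher in EILP than in ALP (1.08 without EILP 2), and ILCp differed from EILP by −3.20 ± 0.71 (−2.44 without ILCp 2).

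In ALP and EILP, Elane varied more than the other azurophil genes. ALP 1 to 7 held 6.62, 10.51, −1.003, 3.72, 4.92, 6.97 and 4.07 log2 CPM, EILP 1 to 7 held 6.72, 14.73, 8.52, 9.66, 6.42, 8.69 and 8.87, and ILCp 1 to 5 held 4.77, −1.003, 6.497, 5.54 and 3.77. ALP spanned the whole range of EILP apart from EILP 2. ALP 3 and ILCp 2 shared the lowest value of batch 2 exactly, which lay 3.96 above the level of −4.96 that is the common lowest level of the table. Were that tied value the common lowest level, EILP 2 would stand at 10.77 and ALP 2 at 6.55 in place of 14.73 and 10.51. The differences were 3.97 ± 1.86 for EILP over ALP and −5.17 ± 2.21 for ILCp against EILP. Without EILP 2 they were 1.84 and −3.09, and without ILCp 2 the difference of ILCp from EILP was −2.68.

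Ctsg, whose product cathepsin G is stored with elastase, was at 7.02 ± 1.45 log2 CPM in ALP and 8.42 ± 1.78 in EILP, a difference of 1.41 ± 1.31. ALP ran from 4.32 to 8.54, and all EILP libraries lay within that range except EILP 4, just above it at 8.62, and EILP 2, at 11.87. Without EILP 2, the difference was 0.10. In ILCp 1 to 5 Ctsg was at 3.53, −2.59, 5.73, 5.37 and 3.43, all below the lowest EILP library. ILCp differed from EILP by −5.33 ± 1.55, and by −2.45 without ILCp 2. In bulk samples, fewer cells that make a transcript and less of it in each cell cannot be told apart, here or below.

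**Figure D1:**
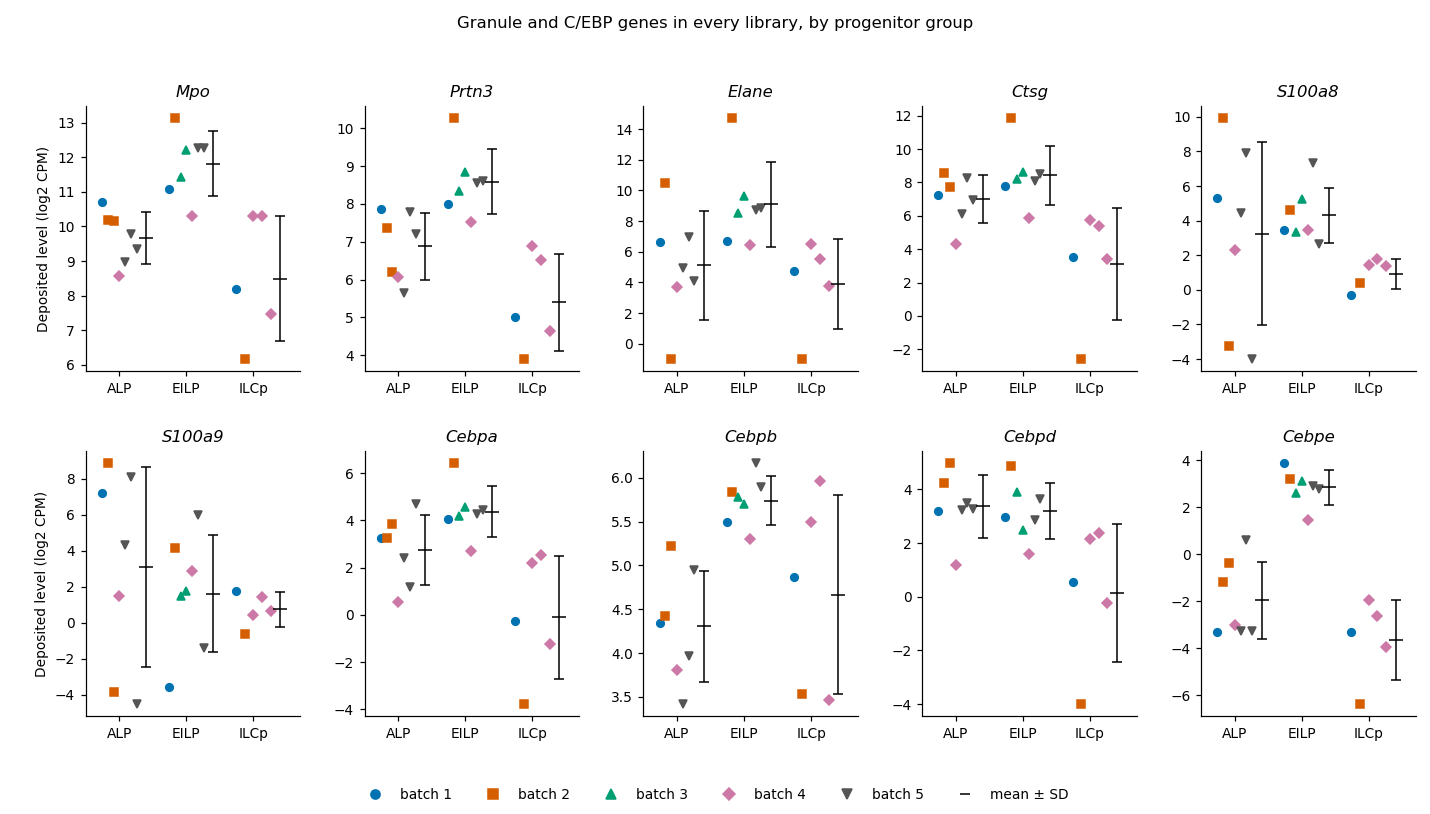
Deposited level (log2 CPM, vertical axis, scaled to each gene) of the 10 genes in every ALP, EILP and ILCp library, with symbols for the 5 batches and bars for the mean ± SD of each group. Cebpe separates EILP (1.46 to 3.89) from ALP (up to 0.62) and ILCp (up to −1.93), while S100a8 and S100a9 spread over the widest range in ALP.

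Among the Cebp genes, Cebpe separated the groups most clearly. In EILP 1 to 7 it was at 3.89, 3.22, 2.59, 3.11, 1.46, 2.91 and 2.78 log2 CPM, in ALP 1 to 7 at −3.33, −1.18, −0.38, −2.99, −3.25, 0.62 and −3.25, and in ILCp 1 to 5 at −3.33, −6.39, −1.93, −2.63 and −3.96. Every EILP library was above every library of the other groups. ALP 1 and ILCp 1 shared 1 value exactly, as did ALP 5 and ALP 7, and these were the lowest values of their batches, so the differences of 4.82 ± 1.02 (EILP over ALP) and −6.50 ± 1.20 (ILCp against EILP) depend on where that lowest level was set. EILP was higher within each of the 4 batches that held ALP too, by 7.21, 4.00, 4.45 and 4.81 in batches 1, 2, 4 and 5. Per kilobase of exon, Cebpe even in EILP (2.54 ± 0.74 log2 CPM per kb) was far below the azurophil genes (7.80 to 10.04).

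Cebpa, the factor that starts the granulocyte programme, was at 2.75 ± 1.47 log2 CPM in ALP, 4.38 ± 1.09 in EILP and −0.11 ± 2.60 in ILCp. EILP 1 to 7 held 4.04, 6.44, 4.20, 4.56, 2.72, 4.27 and 4.42, and ALP from 0.56 to 4.72, so the ranges of EILP and ALP overlapped. ILCp 1 to 5 held −0.28, −3.79, 2.21, 2.52 and −1.22, all below EILP. The differences were 1.63 ± 1.08 for EILP over ALP (0.86 without EILP 2) and −4.49 ± 1.28 for ILCp against EILP (−2.63 without ILCp 2).

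Cebpb was the steadiest member in EILP. It ran from 5.30 to 6.17 log2 CPM there (SD 0.28) and from 3.42 to 5.23 in ALP, and the groups did not overlap. In ILCp it separated into 4.87, 5.50 and 5.97 in ILCp 1, 3 and 4 and 3.53 and 3.46 in ILCp 2 and 5. Differences were 1.43 ± 0.46 for EILP over ALP and −1.07 ± 0.54 for ILCp against EILP (−0.50 without ILCp 2). Cebpd did not follow this order: ALP (3.37 ± 1.17) and EILP (3.19 ± 1.05) differed by −0.18 ± 1.02, while ILCp was at 0.16 ± 2.57, with ILCp 2 lowest at −4.00 and a difference from EILP of −3.04 ± 1.21 (−0.93 without ILCp 2). Cebpg and Ddit3, family members fixed for comparison and not counted among the 10, differed by at most 0.49 between group means and passed in no comparison. Cebpg, with means of 6.30 in ALP, 6.08 in EILP and 6.16 in ILCp, was the flattest of the family.

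Neither S100a8 nor S100a9 set EILP apart from ALP, and of these genes only S100a8 lay wholly lower in ILCp than in EILP. S100a8 in ALP 1 to 7 was at 5.30, 9.94, −3.24, 2.29, 4.43, 7.93 and −4.00 log2 CPM, in EILP 1 to 7 at 3.48, 4.63, 3.37, 5.24, 3.45, 7.30 and 2.66, and in ILCp 1 to 5 at −0.30, 0.38, 1.46, 1.797 and 1.36. Its ALP libraries extended both above and below all EILP libraries, and all ILCp libraries were below all EILP libraries. S100a9 ran from −4.53 in ALP 7 to 8.87 in ALP 2, from −3.58 in EILP 1 to 5.97 in EILP 6, and from −0.65 to 1.78 in ILCp. EILP differed from ALP by 1.07 ± 2.06 in S100a8 and −1.47 ± 2.41 in S100a9, each smaller than its SE. ILCp differed from EILP by −3.36 ± 2.44 and −0.87 ± 2.85.

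In the fit across all 18607 genes (limma, two-sided, Benjamini-Hochberg adjusted p below 0.05), 1 of the 10 genes, Cebpe, passed as higher in EILP than in ALP, where 2.25% of all genes passed as higher and 2.79% as lower. Cebpe, Prtn3 and Mpo passed as lower in ILCp than in EILP (3 of 10), where 1.46% of all genes passed as lower and 1.76% as higher. Of these calls, that of Mpo was lost in 16 and that of Prtn3 in 6 of 19 fits that left out 1 library. Both calls of Cebpe held without any 1 library. None passed between ILCp and ALP, where 3.86% passed as higher and 4.39% as lower, and 0 of 10 lay wholly below ALP in ILCp (4.96% of all genes). Every EILP library was above every ALP library for 2 of 10 genes, Cebpb and Cebpe (2.36% of all genes), and every ILCp library was below every EILP library for 5 of 10, Prtn3, Ctsg, S100a8, Cebpa and Cebpe (5.34%). Because the genes were chosen for these levels, nothing is read from these counts. The median difference over the 10 genes was 1.53 for EILP against ALP, −3.35 for ILCp against EILP and −1.99 for ILCp against ALP, beside 0, −0.08 and −0.03 over all genes.

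Among the EILP libraries, Mpo, Prtn3, Elane, Ctsg and Cebpa moved together. The level was highest in EILP 2 and lowest in EILP 5 for all 5 genes, and Cebpb, Cebpd and Cebpe were lowest in EILP 5 too. Over the 7 EILP libraries, Pearson r for the 6 pairs of azurophil genes was 0.864 to 0.987 (median 0.939) and Spearman rho 0.793 to 1.00. Cebpa tracked them as closely as they tracked each other, with r of 0.907 to 0.998 and rho of 0.883 to 1.00, and its closest partner was Ctsg. In all, 45 pairs were computed, and each is a description of 7 libraries that share batches and a common distribution. Without EILP 2 the azurophil pairs had r of 0.831 to 0.966, and without EILP 2 and EILP 5, the libraries farthest from the median, 0.711 to 0.973 over the remaining 5. Over the 7 ALP libraries the azurophil pairs had r of 0.224 to 0.786, and Cebpa had −0.165 to 0.474 with these genes. Over the 5 of ILCp these ranges were 0.859 to 0.991 and 0.931 to 0.993. Cebpd (0.907 to 0.987) and Cebpe (0.912 to 0.994) were about as close there.

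Among the EILP libraries, the other Cebp genes joined the azurophil genes and Cebpa less closely. Cebpd had r of 0.716 to 0.869 with the azurophil genes but 0.444 to 0.737 without EILP 2. Cebpb had 0.438 to 0.759, and 0.688 to 0.859 without EILP 2. Cebpe, the Cebp gene with the largest difference between groups, had 0.298 to 0.537, and with Mpo its r ran from −0.25 to 0.94 as single libraries were left out. Without EILP 2 and EILP 5, r with the azurophil genes was −0.287 to −0.007 for Cebpd and −0.716 to −0.533 for Cebpe, so their positive values rest on those libraries. EILP 1, the library with the highest Cebpe (3.89), ranked next to lowest in Mpo, Prtn3, Elane, Ctsg and Cebpa. S100a8 and S100a9 followed each other (r = 0.725, rho = 0.643) rather than the azurophil genes (r of 0.177 to 0.415).

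Some of these levels were linked by the levelling of batches. In batch 2, EILP 2 was above the EILP mean by 1.33 in Mpo, 1.68 in Prtn3, 5.64 in Elane, 3.44 in Ctsg and 2.06 in Cebpa, while ILCp 2 differed from the ILCp mean by −2.32, −1.50, −4.92, −5.69 and −3.68. As departures in a batch sum to 0, a low ILCp 2 raises the other libraries of batch 2, and a high EILP 2 lowers them, ILCp 2 included. In batch 4, ILCp 3 and ILCp 4 lay above the ILCp mean and EILP 5 below the EILP mean, linked in the same way. Which library is the source cannot be told apart from these values. The part of this link in the levels of EILP 2, ILCp 2 and EILP 5 was not tested. Markers of granulocyte-monocyte progenitors (Csf3r, Csf1r, Fcgr3, Ms4a3, Cd34 and Fcgr2b) also summed to more in EILP 2, 3580 CPM, than in the other EILP libraries (710 to 898), mostly through Ms4a3 (2433 CPM), beside 1271 to 1868 in ALP and 10.1 to 398 in ILCp. Fcgr3 and Fcgr2b were also highest in EILP 2, at 413 and 203 CPM, while Csf1r and Cd34 were not. In EILP at most 1 of these 6 markers lay at the lowest level of its batch. ALP 3 and ILCp 2, however, shared the lowest value of batch 2 in Ms4a3 and in Fcgr2b. That value lay 2.72 and 2.13 above the common lowest level of the table. The levels of both genes in EILP 2, and so the sum, depend on where it was set, as for Elane. In EILP 5, the stroma markers (Col1a1, Col1a2, Col3a1, Sparc, Bglap and Cxcl12) summed to 1421 CPM against a median of 170 over EILP, and the ALP markers to 772 against 381. The part of these cells in the co-movement was not tested. Ms4a3, a gene of granulocyte-monocyte progenitors, was at 11.25 log2 CPM in EILP 2, with the other EILP libraries between 3.92 and 7.91.

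Pairs of EILP libraries within a batch are free of that link. EILP 4 exceeded EILP 3 by 0.78 in Mpo, 0.49 in Prtn3, 1.14 in Elane, 0.40 in Ctsg and 0.36 in Cebpa, all in the same direction, while Cebpd was lower by 1.44. Cebpe was 0.52 higher in EILP 4 and Cebpb differed by −0.08. EILP 7 and EILP 6 shared the same Mpo value, an exact tie that need not be an equal measured level. They differed by 0.05 in Prtn3, 0.18 in Elane, 0.46 in Ctsg and 0.15 in Cebpa. In that pair S100a8 differed by −4.65 and S100a9 by −7.37, so a pair alike in azurophil genes was unlike in S100 genes.

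**Figure D2:**
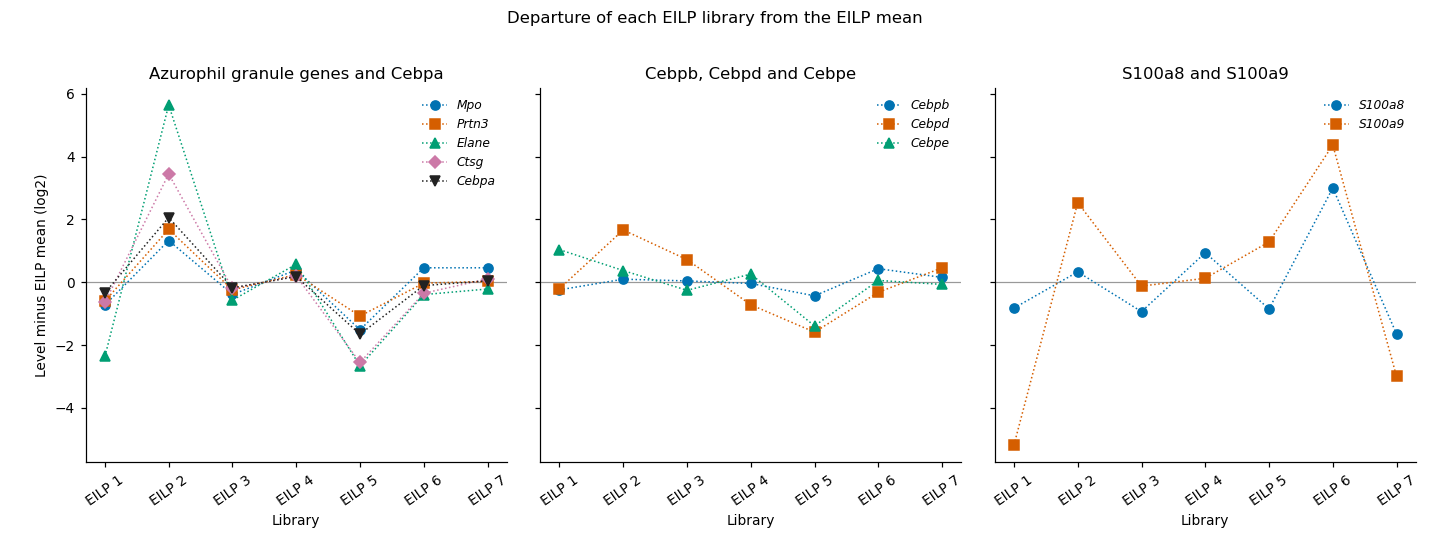
Departure of each gene from its EILP mean (log2, vertical axis, shared by the panels) in EILP 1 to 7; dotted lines join the points of a gene and imply no order of libraries. Mpo, Prtn3, Elane, Ctsg and Cebpa peak in EILP 2 and are lowest in EILP 5, and EILP 3 and EILP 4 mirror each other because batch 3 held EILP alone.

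S100a8 and S100a9 were high in the same libraries as some genes of the later granules. The mean of S100a8 and S100a9 was highest in ALP 2, ALP 6, EILP 6 and ALP 1, at 9.40, 7.99, 6.64 and 6.25 log2 CPM. The mean of Ngp, Ltf and Camp, which encode proteins of specific granules, was highest in the same 4 libraries, at 7.85, 6.79, 6.77 and 5.44, and at most 1.66 in the rest. These 3 genes were picked from the list of later granule genes after their values were seen. EILP 7 differed from EILP 6 by −11.94 in Ngp, −11.40 in Ltf and −10.14 in Camp, and was at a tied lowest value of batch 5 in all 3. Over the 19 libraries the S100 mean had r = 0.858 with Ngp, 0.854 with Wfdc21 and 0.789 with Lcn2, beside 0.598 with Elane, 0.359 with Prtn3, 0.334 with Ctsg, 0.285 with Mpo and 0.099 with Cebpa. The 24 later granule genes ranged from −0.08 (Cyba) to 0.858, with a median of 0.388. Within groups, the S100 mean had r = 0.895 with the mean of Ngp, Ltf and Camp and 0.334 with the azurophil mean over the 7 EILP libraries, but 0.807 and 0.755 over the 7 of ALP, so the sets were told apart less in ALP. Over the 5 ILCp libraries the order was reversed, with r = 0.625 for Ngp, Ltf and Camp and 0.868 for the azurophil mean. Among ALP, ALP 5 departed from the pairing of S100 and later granule genes, with an S100 mean of 4.38 and a Ngp, Ltf and Camp mean of −3.05.

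The markers of maturing neutrophils (Ly6g, Ngp, Ltf, Camp, Retnlg, Mmp8, Cxcr2 and Itgam) summed to 891 CPM in ALP 2, 530 in ALP 6, 449 in EILP 6 and 178 in ALP 1. The sum was 31.4 to 44.8 in the other ALP, 7.88 to 44.4 in the other EILP and 29.996 to 189 in ILCp libraries, and up to 5 of the 8 markers lay at the lowest level of their batch. Ly6g, which defines mature neutrophils, was at the tied lowest value of its batch in 16 of 19 libraries. It lay above it in ALP 6 (−0.35 log2 CPM), EILP 6 (0.05) and ILCp 3 (−0.98). EILP 6 also had the highest summed markers of eosinophils, basophils and mast cells (Epx, Prg2, Mcpt8, Cpa3, Ms4a2, Fcer1a, Il5ra and Prss34), at 13682 CPM, against a median of 1228 over EILP, with Prg2 at 13.12 log2 CPM. ALP 6, ALP 7 and EILP 7 shared the lowest value of batch 5 in Prg2 and in Epx. That value lay 4.83 and 3.78 above the common lowest level of the table. The levels of both genes in EILP 6, and so the sum, depend on where it was set. The part of maturing neutrophils, eosinophils, basophils and mast cells in the S100 levels was not tested.

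**Figure D3:**
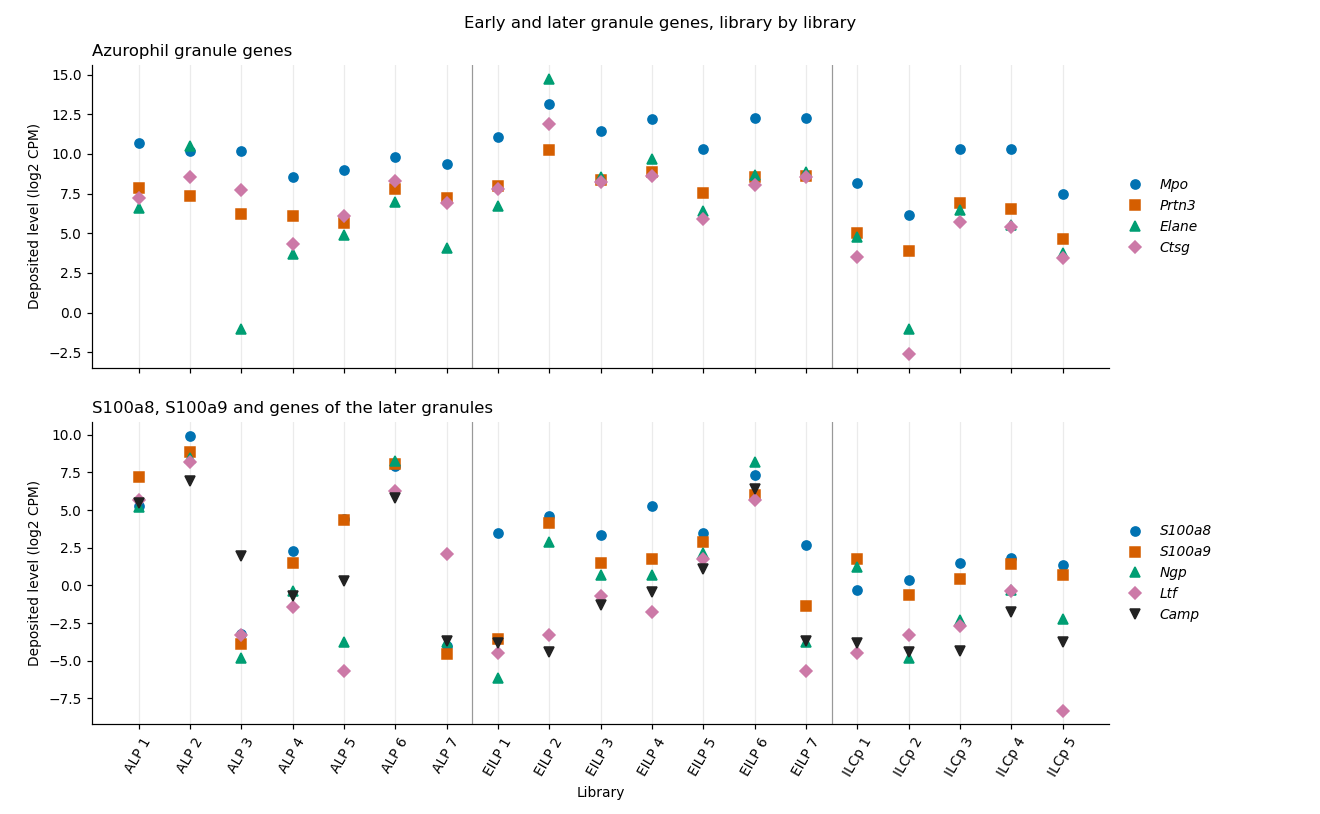
Deposited level (log2 CPM, vertical axes) in each of 19 libraries (horizontal axis, grey lines between ALP, EILP and ILCp) of the azurophil genes (upper panel) and of S100a8, S100a9, Ngp, Ltf and Camp (lower panel). Genes of the lower panel are high together in ALP 1, ALP 2, ALP 6 and EILP 6, whereas EILP 6 and EILP 7 hold the same deposited Mpo value.

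Within batches, the azurophil genes were higher in EILP than in ALP in 4 of 4 batches, but by unequal amounts. The Mpo difference was 0.38, 2.96, 1.72 and 2.90 in batches 1, 2, 4 and 5, that of Prtn3 0.14, 3.49, 1.44 and 1.71, and that of Elane 0.10, 9.97, 2.71 and 3.46. Batch 1 thus showed little difference in these genes while showing the largest in Cebpe (7.21). In batch 2, ALP 3 was at the tied lowest value in Elane, so the 9.97 depends on where that value was set. Cebpa differed by 0.79, 2.88, 2.16 and 1.58 and Cebpb by 1.15, 1.01, 1.49 and 1.92. S100a9 changed sign between batches (−10.79, 1.64, 1.43 and −0.33).

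ILCp was lower than EILP in 3 of 3 batches for every member but S100a9, and batch 2 gave the largest gaps in all azurophil and Cebp genes. In batches 1, 2 and 4 the difference was −2.90, −6.97 and −0.94 in Mpo, −2.98, −6.38 and −1.49 in Prtn3 and −4.25, −14.46 and −1.02 in Ctsg. Elane differed by −1.95 and −1.16 in batches 1 and 4, and in batch 2 ILCp 2 was at the tied lowest level. Cebpa differed by −4.32, −10.23 and −1.55, and Cebpe by −7.21, −9.61 and −4.30. Batch 4, with 3 ILCp libraries, gave the smallest gap in each of these genes. There ILCp 3 and ILCp 4 had the Mpo level of EILP 5 and ILCp 5 was 2.82 lower, and Prtn3, Elane, Ctsg, Cebpa, Cebpb and Cebpd were lower in ILCp 5 too. ILCp 4 and ILCp 5 share the Plzf-cre-GFP/+ genotype, and ILCp 3 carries Tcf7EGFP/+.

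**Figure D4:**
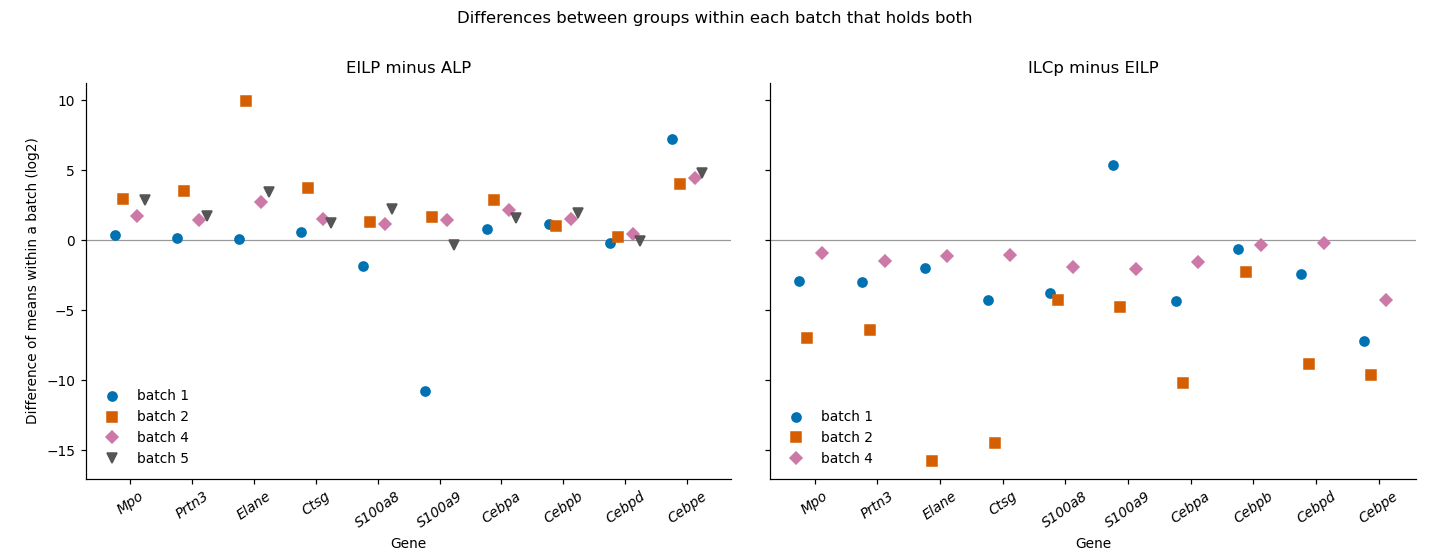
Difference between group means within a batch (log2, vertical axis) for each gene, EILP minus ALP on the left (batches 1, 2, 4 and 5) and ILCp minus EILP on the right (batches 1, 2 and 4); each symbol is 1 batch. Batch 2 gives the lowest ILCp minus EILP values in azurophil and Cebp genes, down to −15.73 in Elane. Batch 4 gives the values nearest to 0 in the same genes. In Elane, ALP 3 and ILCp 2 of batch 2 are at the tied lowest value.

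ILCp against ALP gave −1.19 in Mpo, −1.48 in Prtn3, −1.20 in Elane and −3.92 in Ctsg, and −2.86, 0.36, −3.21 and −1.68 in Cebpa, Cebpb, Cebpd and Cebpe. Without ILCp 2 these became 0.12, −0.63, 1.58 and −0.71 in the azurophil genes and −0.78, 1.00, −0.86 and −0.13 in the Cebp genes, so the place of ILCp below ALP in Mpo and Elane rests on that library. The 3 comparisons share their groups, so these values are not independent of those above.

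The order of the 10 genes within a group was compared per kilobase of GENCODE exon. In EILP the mean level was 10.04 log2 CPM per kb in Mpo, 9.11 in Elane, 8.38 in Ctsg and 7.80 in Prtn3. Each of these genes exceeded the next in 6 of 7 EILP libraries, and Prtn3 exceeded Cebpb (5.15) in 7 of 7. S100a8 followed at 4.83, then Cebpa at 2.98 and S100a9, Cebpe and Cebpd at 2.55, 2.54 and 1.29. S100a9 and Cebpe did not differ beyond their spread (S100a9 was higher in 4 of 7 libraries). ALP began with Mpo (7.90), Ctsg (6.97), Prtn3 (6.08) and Elane (5.14). The place of Elane in ALP rests on ALP 3, at the tied lowest value: without it Elane and Prtn3 were at 6.16 and 6.197, and with it Prtn3 exceeded Elane in 5 of 7 libraries. ILCp kept Mpo on top (6.71), followed by Prtn3 (4.60) and Cebpb (4.08). Elane (3.94) came next by mean but exceeded Cebpb in 4 of 5 ILCp libraries.

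Other genes of granulocyte development were read from 4 lists, 83 genes in the table, that share no gene with the 10 members. In EILP against ALP, 10 of the 83 rose and 2 fell, beside the 2.25% and 2.79% of all genes given above, and their median difference was 0.03. The lists were drawn up with earlier results of these data known, so no count is independent evidence of a direction.

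Of 18 genes of the azurophil stage, 4 rose and 1 fell from ALP to EILP (median 1.11). Cd63, a membrane protein of azurophil granules, rose by 3.93 ± 0.50 (limma adjusted p = 0.000130). Nkg7, a protein of cytotoxic granules, rose by 1.48 ± 0.20, and Calr, an endoplasmic reticulum chaperone needed for myeloperoxidase folding, by 1.16 ± 0.17. Srgn, the proteoglycan that packs granule proteases, rose by 0.55 ± 0.09, and Serpinb1a, an inhibitor of neutrophil serine proteases, fell by 1.18 ± 0.16 (adjusted p = 0.000322). These 5 calls held without any 1 library. Nkg7 and Cd63 are also made by other granule-bearing cells, lymphocytes among them.

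From EILP to ILCp, none of the 18 rose and 4 fell (median −1.04). Prss57, an azurophil serine protease, differed by −2.76 ± 0.41 (adjusted p = 0.00194), and its call held without any 1 library. Calr differed by −1.07 ± 0.20, lost without ILCp 2 (adjusted p = 0.0525), Srgn by −0.44 ± 0.11 and Plac8 by −1.58 ± 0.41. The calls of Srgn and Plac8 were lost in 14 and 16 of 19 fits that left out 1 library. From ALP to ILCp, 3 rose (Nkg7, Cd63 and Ctsc, the cathepsin C that activates the serine proteases) and 4 fell, among them Prss57, Serpinb1a and Plac8, with a median of −0.87. That call of Plac8 was lost in 11, of Ctsc in 5 and of Serpinb1a in 3 of 19 fits that left out 1 library. Prss57 differed by −2.33 ± 0.40 and Cd63 by 2.92 ± 0.57 in that comparison.

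Of 24 genes of later granules and maturation, 1 rose and none fell from ALP to EILP (median −0.17). It was Cyba, a subunit of the NADPH oxidase, by 0.76 ± 0.17 (adjusted p = 0.0166). Its call was lost without ALP 1, EILP 6 or EILP 7. Ltf, Camp and Ngp did not pass between EILP and ALP (−2.91 ± 2.64, −3.19 ± 2.11 and −0.65 ± 2.88). From EILP to ILCp, Mmp8, a collagenase, rose by 7.25 ± 1.62 from a mean of −1.15 log2 CPM in EILP, and Ncf1, an oxidase subunit, fell by 2.04 ± 0.41 (adjusted p = 0.0141, median of the list −0.92). From ALP to ILCp, Cyba rose and Ncf1 fell (median −1.31). Without ILCp 2 or ILCp 1, Mmp8 and Ncf1 did not pass between EILP and ILCp, nor Cyba between ALP and ILCp. Mmp8 did not pass without EILP 1, EILP 2 or EILP 5 either, nor Ncf1 without EILP 5, nor Cyba without ALP 1.

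Of 29 regulators and receptors, 3 rose and 1 fell from ALP to EILP (median −0.23). Stat3, which carries G-CSF signals, rose by 1.08 ± 0.21, and Gfi1b, a repressor active in erythroid and megakaryocyte progenitors, by 2.37 ± 0.54. Batf3 rose from a mean of −4.22 log2 CPM in ALP to 1.03, and Csf2rb2 fell from 4.68 to −3.33. Gfi1b was lost without EILP 1 or EILP 6, and Batf3 without EILP 2, EILP 6 or EILP 7.

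From EILP to ILCp, none of the 29 rose and 3 fell (median −0.70). Spi1, the PU.1 gene, differed by −2.52 ± 0.54 (adjusted p = 0.0192) after means of 7.29 in ALP and 7.32 in EILP. Irf8, which favours monocyte over granulocyte fate, differed by −2.18 ± 0.49 (adjusted p = 0.0243), and Csf3r, the G-CSF receptor, by −6.72 ± 1.73 (adjusted p = 0.0463). Without ILCp 2 all 3 lost their call, and Irf8 lost it in 7 and Csf3r in 17 of 19 fits that left out 1 library, Spi1 also without EILP 2 or EILP 5. From ALP to ILCp, 3 rose (Stat3, Trib2 and Batf3) and 9 fell (median −1.11), led by Irf8 (−2.88 ± 0.47), Spi1 (−2.48 ± 0.52), Il6st (−5.69 ± 1.31) and Csf1r (−6.46 ± 1.52), with Csf3r at −7.04 ± 1.67. Spi1, Csf1r and Csf3r lost that call without ILCp 2, Csf1r and Csf3r also without ILCp 1, Csf1r without ALP 1, Trib2 without ILCp 1 or ALP 4, and Batf3 without ILCp 2. The difference in Il6st was −2.73 without ILCp 2. Gfi1, a repressor required for granulocytes, did not pass in any comparison, with means of 4.79, 4.48 and 3.78 in ALP, EILP and ILCp.

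Of the other S100 genes (12 in the table), 2 rose and none fell from ALP to EILP (median 0.10), 2 rose from EILP to ILCp (median 0.13) and 4 rose from ALP to ILCp (median 0.30). S100a4 had means of 1.91, 5.14 and 7.17 log2 CPM in ALP, EILP and ILCp and S100a10 of 7.51, 7.75 and 8.98, so both means were highest in ILCp. S100a11 rose by 1.10 ± 0.14 from ALP to EILP (adjusted p = 0.000185) and S100a6 by 2.22 ± 0.53 from EILP to ILCp. S100a4 lost its call between ALP and EILP without EILP 2 or EILP 7, and S100a6 in 11 of 19 fits. Over all 83 genes, 3 rose and 8 fell from EILP to ILCp (median −0.64) and 11 rose and 14 fell from ALP to ILCp (median −0.86).

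The genes most like the azurophil members were sought among 9304 genes with a mean level at or above the median. Over the 19 libraries, the highest r with the mean of Mpo, Prtn3, Elane and Ctsg outside the members belonged to Hp (0.928), Zbtb6 (0.913), Magt1 (0.903), Emilin2 (0.890) and Creld2 (0.885). Hp encodes haptoglobin, a haemoglobin-binding plasma protein that granulocyte precursors also make, and was at 6.55 ± 1.94 log2 CPM in EILP, 3.69 ± 2.78 in ALP and 2.29 ± 2.33 in ILCp. With the group means removed, Hp still had r = 0.896, and Zbtb6, Magt1, Emilin2 and Creld2 had 0.826, 0.800, 0.868 and 0.816. ALP 3 and ILCp 2 shared the lowest value of batch 2 in Hp, as in Elane, at 3.75 and 3.96 above the common lowest level. Emilin2 likewise had the same lowest value, −1.65, in ALP and in ILCp. Removing group means leaves these shared values in place. Of the other members on the same measure, Cebpa had 0.869, Cebpe 0.817, Cebpd 0.777, Cebpb 0.642, S100a8 0.545 and S100a9 0.343. With the group means removed, these became 0.738, 0.584, 0.782, 0.511, 0.431 and 0.463. These libraries share batches and a common distribution, and the values describe them without a test.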

How the data were processed

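Sorted cells gave RNA (RNeasy plus micro) that was amplified by SMARTer Ultra Low v3 and prepared by Nextera XT, kits that do not mark strand, per the labels' protocols. The submitters' processing notes name bcl2fastq 1.8.4, STAR 2.4.0h, edgeR, limma and mm10, with no role or order, and the counting method is not given in the sources used here. Deposited values are log2 CPM of 18607 genes and 19 libraries, beside 9 empty columns. The unit, the common distribution and the levelling of 5 batches were read from the values and are recorded in no header or label. As read totals are unknown, counting intervals were not computed.

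Titles gave the groups. The deposited log2 values were fitted with limma 3.58.1 in R 4.3.3 (group and batch, mean-variance trend, all 19 libraries) over all genes, and p-values were adjusted over all of them (Benjamini-Hochberg, threshold 0.05). EILP 3 and EILP 4 bear on the errors of that fit and not on the differences. The procedure was tested on simulated data. The members and lists were chosen with earlier results of these data known. Named genes were the 10 members, up to 4 rising and 4 falling genes of each list in each comparison by smallest p, the fixed genes Spi1, Gfi1, Irf8, Csf3r, Cebpg and Ddit3, and the 5 genes most like the azurophil members. A gene that the rule took is not reported here. Ltf, Camp, Ngp, Lcn2, Wfdc21, Ms4a3, Ly6g and Prg2 were named from the lists after their values were seen. Of 28 later granule genes fixed, 24 were in the table, and of 13 S100 genes 12. Markers of monocytes, erythroid cells, B cells, dendritic cells and stroma were summed as well, and their ranges are given among the other observations. Settings tried were no batch term, a replicate block, no trend, only batches with both groups, only the groups compared, no Plzf-cre-GFP libraries, genes at or above the median level, median centring and each library left out. Fits without batch 2 and without batch 4 were added after seeing the data.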

Additional observations from a re-analysis of the deposited data

Results flagged for a closer look

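Of 30 sets of values (each of the 10 genes in ALP, EILP and ILCp), a library lay past Dixon's critical value at the 95% level in 2, where chance gives about 1 in 20. The genes were chosen with these values in view, so this only points to the values. Elane in EILP 2 was at 14.73 log2 CPM, and its gap of 5.07 to the next EILP library was 0.610 of the range of the group (critical value 0.568 for 7 libraries). Ctsg in ILCp 2 was at −2.59, and its gap of 6.02 to the next ILCp library was 0.723 of the range (critical value 0.710 for 5 libraries). Both libraries belong to batch 2, whose departures from the group means sum to 0 for each gene.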

How the results depend on the processing

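Counts of genes that passed in limma depended on the fit. EILP against ALP passed 939 genes, 598 passed for ILCp against EILP and 1534 for ILCp against ALP. Without a batch term, which credits the levelled batches with freedom they no longer have, 2551, 3047 and 3856 passed, with 4, 7 and 3 of the 10 granule and Cebp genes (1, 3 and 0 with batch) and 22 and 26 of the 83 listed genes in the comparisons with EILP (12 and 11 with batch). The replicate number as a block gave 450, 290 and 937 genes and 0 and 1 of the 10 in the comparisons with EILP. Same-numbered libraries departed from their group means with r of −0.567 to 0.049, so the numbers were not taken to pair samples. Without a mean-variance trend, ILCp against EILP passed 280 genes, 1 of the 10 and 3 of the 83, and ILCp against ALP 16 of the 83. With only the groups compared, ILCp against EILP passed 183, 1 and 4, ILCp against ALP 772 genes and 5 of the 83, and EILP against ALP 3 of the 10. Without the Plzf-cre-GFP libraries, ILCp against EILP passed 254, 1 and 5, and ILCp against ALP 1012 genes. With only batches that held both groups, ILCp against EILP passed 233, 0 and 3, and ILCp against ALP 855 genes and 10 of the 83. Without batch 2, ILCp against EILP passed 259, 0 and 2, with Mpo at −2.05, Prtn3 at −2.18 and Cebpe at −5.26, and ILCp against ALP 790 genes and 8 of the 83. Without batch 4, ILCp against EILP passed 258, 5 and 7, ILCp against ALP 855, 4 and 15, and EILP against ALP 583 genes and 2 of the 10. For EILP against ALP, genes at or above the median level gave 0 of the 10, as Cebpe fell below that level, and median centring gave 2. Centring moved the median of all genes from 0 to 0.22, from −0.08 to −0.17 and from −0.03 to 0.09. The causes of these changes in count were not tested. Where a count of the 10 or of the 83 stands without that of all genes in its fit, nothing can be read from it.

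Leaving out 1 library at a time gave 696 to 964 genes, 1 to 3 of the 10 and 9 to 14 of the 83 for EILP against ALP. It gave 224 to 624, 1 to 3 and 2 to 11 for ILCp against EILP, and 920 to 1584, 0 to 0 and 12 to 24 for ILCp against ALP. The lowest counts came without EILP 7, EILP 5 and ILCp 2 for the 3 sets of all genes. The median r of the azurophil pairs in EILP was 0.939 and ran from 0.915 without EILP 2 to 0.952. In EILP against ALP, the sign of Cebpd, S100a8 and S100a9 turned in some settings, and that of the other 7 members did not. In ILCp against ALP it turned in at least 1 setting for Mpo, Elane, Ctsg, Cebpa, Cebpb, Cebpd and Cebpe (in 3 settings for Mpo and Cebpe and 4 of 32 for Elane), and in ILCp against EILP for S100a9. No pseudocount was needed, since the table is already on a log scale. The depth of the libraries is unknown, and a tied lowest value does not show that a transcript was absent.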

Other observations

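Markers of other cell types, summed as CPM, differed between and within the groups. Monocyte and macrophage markers (9 genes in the table) summed to 198 to 960 in ALP, 159 to 825 in EILP and 770 to 2015 in ILCp. Dendritic cell markers (6 genes) summed to 994 to 2725, 170 to 432 and 103 to 137 in the same order, and B cell markers (6 genes) to 82.7 to 252, 52.9 to 84.3 and 27.0 to 56.9. Erythroid and megakaryocyte markers (8 genes) summed to 1.25 to 257, 62.1 to 1072 and 67.7 to 1356. Stroma markers (6 genes) summed to 0.77 to 9.02 in ALP, 3.08 to 1421 in EILP and 0.23 to 7.03 in ILCp. The part of these cells in the levels of the granule genes was not tested.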
